A study of Homo sapiens with 10 samples.

Results

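The metalloproteinase genes of the MMP, ADAM, ADAMTS and ADAMTSL families were examined in ARPE-19 cells, an established line of human retinal pigment epithelium (RPE), after exposure to high glucose. Members were the rows of the deposited count table whose symbol was MMP, ADAM, ADAMTS or ADAMTSL followed by a number and at most a single letter. This rule gave 67 of 22626 rows, with 23 MMP, 20 ADAM, 19 ADAMTS and 5 ADAMTSL genes. All cells had been kept for 48 h in either control medium, which held D-glucose at 5.5 mM plus mannitol at 32 mM (named MG in the columns), or medium with D-glucose raised to 37.5 mM (HG), and RNA was sequenced from 5 libraries of each. The comparison asks which of these proteases changed their transcript level when glucose was given in place of mannitol. The labels do not say that the 5 samples of a group were separate cultures, so the p-values below measure only the spread between these samples, and all 10 come from 1 cell line.

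The active enzymes of these families have a catalytic domain that holds a zinc ion. MMPs are secreted or membrane-bound enzymes that cleave collagens, gelatins, proteoglycans and other proteases, ADAMs are membrane proteins of which many release the outer part of other membrane proteins (shedding), and ADAMTS enzymes are secreted and act on proteoglycans, procollagens and other matrix proteins. ADAMTSL proteins resemble the ancillary part of ADAMTS enzymes and have no protease domain. In the eye the RPE secretes several of these enzymes together with their inhibitors, the TIMPs, and the balance is known for its part in the turnover of Bruch's membrane, the sheet of matrix under the RPE.

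The zinc-binding site was located in the longest coding sequence that GENCODE release 29 (GRCh38) gives for each member, as 11 codons in which the first, the fifth and the last encode histidine, or aspartate at the last, and the second encodes glutamate. It was present in 54 of 67 members, all 23 MMPs, all 19 ADAMTS and 12 of 20 ADAMs. The 13 members without it were the 5 ADAMTSL genes and ADAM2, ADAM7, ADAM11, ADAM18, ADAM22, ADAM23, ADAM29 and ADAM32. The site sequences below are those of the 13 members that carry it and passed the test for a difference between HG and control, shown because they separate the changed members with an intact catalytic site from the 3 changed members without it (ADAM23, ADAM29 and ADAMTSL4). Each is given 5′ to 3′ along the coding strand with the codons of the 3 histidines and the glutamate in capitals. The MMP sites lie within a single exon, exon 5 in MMP1, MMP3, MMP15 and MMP24 and exon 8 in MMP2, as do those of ADAM12 and ADAM19 in exon 11, while the ADAMTS sites run across an exon border and their coordinates span the intron.
MMP1, chr11:102795549-102795581, minus strand: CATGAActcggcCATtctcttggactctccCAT
MMP3, chr11:102840535-102840567, minus strand: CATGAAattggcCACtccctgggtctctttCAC
MMP2, chr16:55491827-55491859, plus strand: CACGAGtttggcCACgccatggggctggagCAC
MMP15, chr16:58040563-58040595, plus strand: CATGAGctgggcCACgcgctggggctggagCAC
MMP24, chr20:35263817-35263849, plus strand: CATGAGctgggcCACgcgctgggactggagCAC
ADAM12, chr10:126094059-126094091, minus strand: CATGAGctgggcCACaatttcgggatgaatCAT
ADAM19, chr5:157505734-157505766, minus strand: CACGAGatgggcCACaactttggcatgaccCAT
ADAMTS15, chr11:130461612-130462109, plus strand: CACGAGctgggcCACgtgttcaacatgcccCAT
ADAMTS12, chr5:33649682-33658200, minus strand: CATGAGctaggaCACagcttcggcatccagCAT
ADAMTS7, chr15:78788359-78789705, minus strand: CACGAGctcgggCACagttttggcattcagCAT
ADAMTS5, chr21:26943525-26954748, minus strand: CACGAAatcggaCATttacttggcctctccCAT
ADAMTS6, chr5:65300116-65329394, minus strand: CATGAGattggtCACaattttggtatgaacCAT
ADAMTS2, chr5:179154177-179154830, minus strand: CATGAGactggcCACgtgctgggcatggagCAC
Over the 78 pairs of these sites, 15 to 32 of the 33 bases were equal (median 21.0), with the highest value between the membrane-type enzymes MMP15 and MMP24 and the lowest between MMP3 and ADAMTS15. ADAMTS15 carries an asparagine codon at the eighth position, as do ADAMTS1, ADAMTS4 and ADAMTS9, where 49 members have glycine.

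Each library held 32448991 to 45864176 counts, so that 3 counts, the upper limit left by a count of 0, correspond to 0.0654 to 0.0925 CPM (counts scaled to a common library size); such limits cover counting error only. The RPE genes RLBP1 (245 to 572 counts), MITF (1691 to 2599) and OTX2 (2902 to 4199) were present in every library, whereas RPE65 was at 0 to 6 counts and TTR and CRX at 0. TYR was at 0 to 34 counts and SERPINF1 at 17 to 44 counts. BEST1 varied widely, from 24 to 18223 counts (0.577 to 551.5 CPM in control and 0.981 to 7.79 CPM in HG), and did not pass (log2 fold change -4.97, edgeR adjusted p = 0.067). PMEL, a melanosome protein, was at 63 to 194 counts and lower in HG (log2 fold change -0.72, edgeR adjusted p = 0.00854). Of the other cell types, the endothelial genes CDH5, PECAM1 and VWF were at 0, at 0 to 4 and at 0 to 24 counts. The leukocyte genes PTPRC and CD14 were at 0 to 4 and 0 to 8 counts, and the neuronal genes RBFOX3 and SNAP25 at 3 to 14 and 0 to 13. CD68, a lysosomal protein of macrophages that other cells also express, ranged from 1798 to 5520 counts and was higher in HG (log2 fold change 0.70, edgeR adjusted p = 0.00311), and the keratins KRT8 and KRT18 were lower in HG (log2 fold change -0.62, edgeR adjusted p = 0.00159 and log2 fold change -0.68, edgeR adjusted p = 0.00142); the part of these marker differences in the results below was not tested, and in bulk RNA a smaller number of cells of a type cannot be told apart from less RNA per cell. The libraries MG_2 and HG_1 stood apart on the second principal component, and their counts rose with the GC content of the gene (0.170 and 0.188 log2 units per 10 percentage points of GC, against -0.0916 to -0.00519 in the others). Members whose call changed without this pair are given with both values. Values of single libraries are listed in column order, from MG_1 to MG_5 and from HG_1 to HG_5, and confidence intervals are not adjusted for the number of genes.

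**Figure D1:**
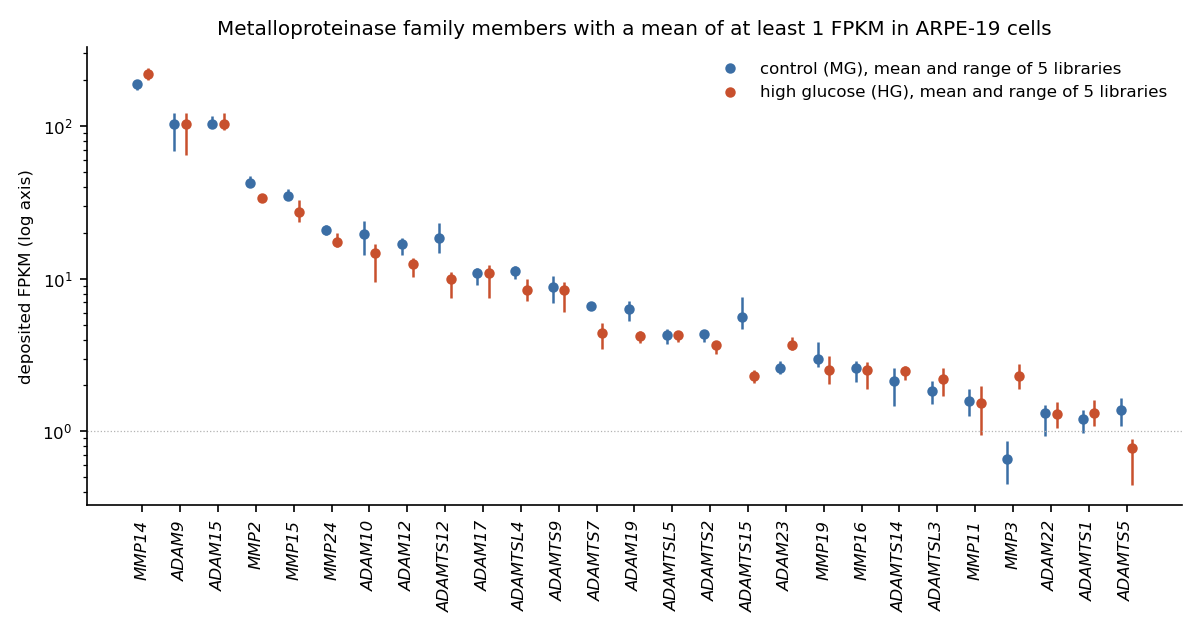
Deposited FPKM (log axis) of the 27 members with a mean of at least 1 FPKM over the 10 libraries, ordered by that mean. Points are the means of the 5 control (blue) and 5 HG (red) libraries and bars run from the lowest to the highest library; MMP14 is highest in both groups, and MMP3 and ADAM23 lie above control in HG while MMP2, ADAM12, ADAMTS12, ADAMTS7, ADAM19, ADAMTS15 and ADAMTS5 lie below, without overlap of the bars.

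The cells expressed part of the families. A count was found for 54 of the 67 members, 41 had enough counts to be tested, and 27 reached a mean of 1 FPKM (fragments scaled to transcript length and library size, as deposited). Of all 22626 rows, 14936 had enough counts to be tested. MMP14, the membrane-type collagenase that activates pro-MMP2, led the list at 188 ± 11.3 FPKM in control and 221 ± 18.3 FPKM in HG (SD, n = 5 each). The sheddases ADAM9 and ADAM15 followed at nearly equal levels, with 104 ± 20.7 FPKM in control and 103 ± 23.6 FPKM in HG for ADAM9 and 103 ± 7.97 FPKM in control and 103 ± 10.8 FPKM in HG for ADAM15. The secreted gelatinase MMP2 came next at 42.8 ± 2.70 FPKM in control and 33.7 ± 1.47 FPKM in HG. MMP15 and MMP24, also membrane-type enzymes, followed with means of 34.7 and 21.0 FPKM in control. ADAM10 and ADAM17, the main sheddases of Notch, cadherins, TNF and EGF receptor ligands, were at 19.6 ± 3.45 and 10.9 ± 1.05 FPKM in control. Among the ADAMTS genes ADAMTS12 was highest (18.6 ± 3.10 FPKM in control and 10.01 ± 1.46 FPKM in HG), followed by ADAMTS9 and ADAMTS7, and among the ADAMTSL genes ADAMTSL4 (11.2 ± 0.908 FPKM in control and 8.48 ± 1.000 FPKM in HG).

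No count in any library was recorded for 13 members. These were the gelatinase MMP9, the macrophage elastase MMP12, the collagenase MMP13, the enamel protease MMP20, MMP26 and MMP27, the ADAMs ADAM2, ADAM7, ADAM18, ADAM30 and ADAM33, and ADAMTS10 and ADAMTSL2. A further 13 were detected with too few counts to be tested: MMP8, MMP10, MMP17, MMP21, ADAM20, ADAM32, ADAMTS4, ADAMTS8, ADAMTS16, ADAMTS17, ADAMTS18, ADAMTS19 and ADAMTS20. Their totals over all 10 libraries ran from 8 counts for MMP10 to 84 for ADAM32. MMP8, the neutrophil collagenase, had 10 counts, all of them in 3 control libraries.

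Of the 41 members tested, 16 differed between HG and control at an adjusted p under 0.05 (edgeR quasi-likelihood test, Benjamini-Hochberg over 14936 rows), 3 higher and 13 lower in HG. Over all rows tested the same limit was passed by 15.4% (7.62% higher and 7.8% lower in HG), against 39% of the members. The median log2 fold change was -0.10 for the members and 0.001 for all rows, and 26 of the 41 members had a negative value. With a fold change above 1.5 asked for as well, 9 members remained, where the background was 3.69%. In 15 members the libraries did not overlap between the groups, 3 with every HG library above control and 12 with every HG library below, against 13.6% of all rows. By family, 5 of 13 tested MMPs (2 higher, 3 lower), 4 of 13 ADAMs (1 higher, 3 lower), 6 of 11 ADAMTS (all lower) and 1 of 4 ADAMTSL genes (lower) passed. Among the members with the zinc-binding site 13 of 33 passed, 2 higher and 11 lower, and among those without it 3 of 8 passed, 1 higher and 2 lower.

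**Figure D2:**
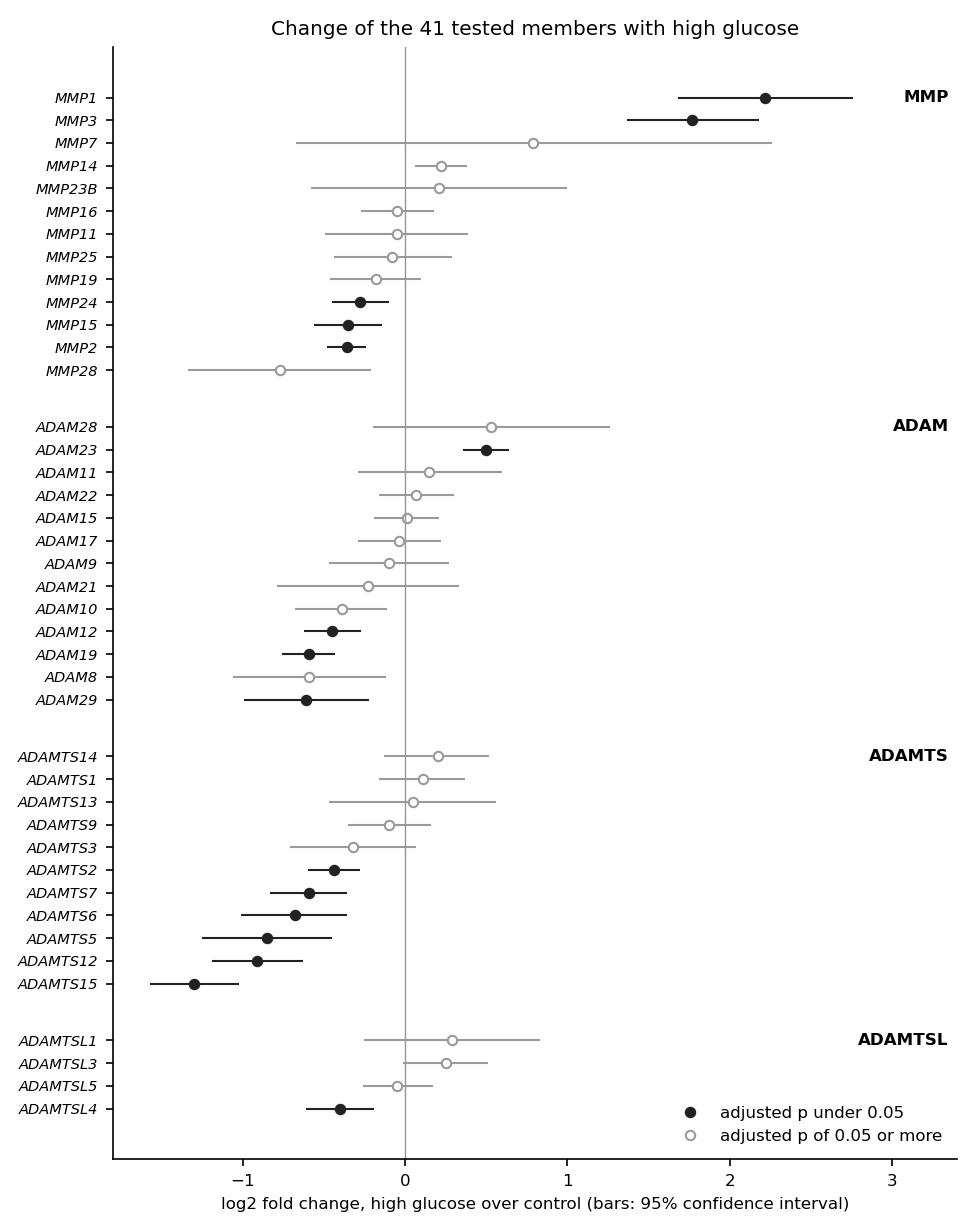
Log2 fold change of HG over control for the 41 tested members, by family, with 95% confidence intervals. Filled points passed an adjusted p of 0.05; MMP1 (2.22) and MMP3 (1.77) lie farthest to the right, and the 6 filled ADAMTS points lie between -1.30 and -0.44.

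The collagenase MMP1 and the stromelysin MMP3, neighbours in the MMP cluster of chromosome 11, were the tested members with the largest rise. MMP1, the interstitial collagenase that opens fibrillar collagens, was at 0.303, 0.606, 0.625, 0.545 and 0.404 CPM in the control libraries and at 1.97, 2.57, 2.23, 3.07 and 1.82 CPM in the HG libraries. Every HG library exceeded every control library, from 10 to 27 counts in control and from 60 to 106 in HG. This was a 4.66-fold rise (log2 fold change 2.22, SE 0.246, edgeR adjusted p = 0.000265). MMP3, which degrades proteoglycans and basement membrane proteins and activates pro-MMP1, was at 1.24, 0.920, 1.30, 1.45 and 1.68 CPM in the control libraries and at 4.29, 4.14, 5.39, 5.05 and 3.71 CPM in the HG libraries. The lowest HG library was again above the highest control library, and the rise was 3.42-fold (log2 fold change 1.77, SE 0.184, edgeR adjusted p = 0.000182). Both genes were low: at 1.10 ± 0.251 FPKM in HG for MMP1 and 2.30 ± 0.365 FPKM for MMP3 (SD, n = 5), they stayed far under MMP14. Leaving out MG_2 and HG_1 gave log2 fold changes of 2.36 for MMP1 and 1.69 for MMP3.

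The rest of the chromosome 11 cluster was low or without counts. MMP7, the matrilysin, was at 0 to 0.516 CPM in control and 0.178 to 0.675 CPM in HG, and the groups overlapped (log2 fold change 0.79, SE 0.664, edgeR adjusted p = 0.494). The second stromelysin, MMP10, had 8 counts in all. MMP8 lies in the same cluster, with its 10 counts in control libraries, and MMP12, MMP13, MMP20 and MMP27 had none. MMP11, the stromelysin encoded on chromosome 22, was at 3.90 ± 0.667 CPM (SD, n = 5) in control and 3.76 ± 0.973 CPM (SD, n = 5) in HG and did not pass (log2 fold change -0.05, SE 0.201, edgeR adjusted p = 0.907).

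MMP2, the gelatinase that degrades type IV collagen and denatured collagen, was at 179, 157, 157, 156 and 164 CPM in the control libraries and at 136, 123, 134, 119.5 and 124 CPM in the HG libraries. All HG libraries lay below all control libraries, a fall of 1.28-fold (log2 fold change -0.36, SE 0.0542, edgeR adjusted p = 0.0015). Its partner gelatinase MMP9 had no count.

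MMP14, the activator of pro-MMP2 at the cell surface, was at 679, 813, 761, 716 and 750.5 CPM in the control libraries and at 984, 869, 909.7, 777 and 791 CPM in the HG libraries. Its groups overlapped and it did not pass (log2 fold change 0.22, SE 0.0728, edgeR adjusted p = 0.0672, 95% confidence interval of the log2 fold change 0.06 to 0.38). Without MG_2 and HG_1 its log2 fold change was 0.20 with an adjusted p of 0.0293 by edgeR, and it passed in 10 of 22 alternative fits. MMP14 made up 63.4 ± 1.70% of the summed MMP FPKM in control (60.6 to 65.0%) and 71.0 ± 0.762% in HG (70.0 to 72.2%), and these ranges did not overlap.

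MMP15 and MMP24, the other membrane-type enzymes with high levels, were lower in HG. MMP15 was at 147, 175, 144, 146 and 152 CPM in the control libraries and at 149, 120.1, 114, 102 and 116 CPM in the HG libraries. HG_1, at 149 CPM, lay within the range of the control libraries and the other 4 HG libraries lay below it (log2 fold change -0.35, SE 0.0955, edgeR adjusted p = 0.0318). MMP24 was at 104, 109, 95.7, 91.4 and 98.4 CPM in the control libraries and at 98.0, 83.7, 75.1, 76.2 and 77.7 CPM in the HG libraries, and again only HG_1 reached the control range (log2 fold change -0.28, SE 0.0796, edgeR adjusted p = 0.0382). Both calls were lost in 8 of the 10 fits that left out a single library, with an edgeR adjusted p of up to 0.0799 for MMP15 and 0.0973 for MMP24, while without MG_2 and HG_1 together they were -0.38 (adjusted p = 0.000864, edgeR) and -0.31 (adjusted p = 0.00197, edgeR). MMP16 and MMP25, the remaining membrane-type enzymes with a test, had log2 fold changes of -0.05 and -0.08 and did not pass.

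Of the remaining MMPs, MMP28 (epilysin) was low, at 0.732 ± 0.107 CPM (SD, n = 5) in control and 0.425 ± 0.126 CPM (SD, n = 5) in HG. Its HG libraries all lay below control, but the difference missed the limit (log2 fold change -0.77, SE 0.256, edgeR adjusted p = 0.067). MMP19 and MMP23B did not pass, with log2 fold changes of -0.18 and 0.21; 74.8% of the 100-base windows of the MMP23B transcript also occur in MMP23A, so its counts are uncertain.

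Among the ADAMs with a catalytic site, the abundant sheddases showed no difference that passed. ADAM9 had a log2 fold change of -0.10 (95% confidence interval of the log2 fold change -0.47 to 0.27), ADAM15 of 0.01 (95% confidence interval of the log2 fold change -0.19 to 0.21) and ADAM17, the TNF-converting enzyme, of -0.04 (95% confidence interval of the log2 fold change -0.29 to 0.22). Changes of up to about these bounds could therefore not be told from 0. ADAM10, the constitutive sheddase of Notch and cadherins, was at 243, 162, 209, 206 and 219 CPM in the control libraries and at 115, 168, 160.3, 176 and 172 CPM in the HG libraries. The groups overlapped at MG_2, which lay among the HG libraries, and the test missed the limit (log2 fold change -0.39, SE 0.128, edgeR adjusted p = 0.0631). Without MG_2 and HG_1 the estimate was -0.37 with an edgeR adjusted p of 0.00138, and ADAM10 passed in 7 of 22 alternative fits.

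ADAM12 and ADAM19, meltrins that act on growth factors and neuregulin, were lower in HG. ADAM12 was at 152, 123, 144, 134 and 155 CPM in the control libraries and at 89.0, 112, 105, 103 and 111 CPM in the HG libraries, with all HG libraries below control (log2 fold change -0.45, SE 0.0790, edgeR adjusted p = 0.00356). ADAM19 was at 50.03, 38.0, 42.1, 45.7 and 44.2 CPM in the control libraries and at 27.3, 30.4, 28.1, 28.3 and 31.5 CPM in the HG libraries. The groups did not overlap, and the fall was 1.51-fold (log2 fold change -0.59, SE 0.0759, edgeR adjusted p = 0.000609). ADAM8, at 1.25 ± 0.294 CPM (SD, n = 5) in control and 0.826 ± 0.146 CPM (SD, n = 5) in HG, also had all HG libraries below control and missed the limit (log2 fold change -0.59, SE 0.213, edgeR adjusted p = 0.0921). ADAM21 and ADAM28, both near or under 1 CPM, had log2 fold changes of -0.23 and 0.53 and did not pass.

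The ADAMs without the zinc-binding site act in cell adhesion and synapses rather than as proteases, and 2 of 4 tested passed, in opposite directions. ADAM23, an integrin-binding and LGI1-binding protein, was at 15.6, 16.4, 18.4, 16.2 and 17.1 CPM in the control libraries and at 23.7, 22.8, 25.0, 24.4 and 22.1 CPM in the HG libraries. Every HG library was above every control library, a 1.41-fold rise with little spread (log2 fold change 0.50, SE 0.0630, edgeR adjusted p = 0.000589). ADAM29, a testis-enriched member, was at 1.06, 1.21, 1.37, 1.27 and 1.35 CPM in the control libraries and at 0.701, 0.727, 1.00, 0.821 and 0.852 CPM in the HG libraries, without overlap between the groups (log2 fold change -0.61, SE 0.174, edgeR adjusted p = 0.0382). It was among the lower members, at 0.701 to 1.37 CPM, and its call was lost in 10 of 21 alternative fits, with an edgeR adjusted p of up to 0.0926. Without MG_2 and HG_1 its log2 fold change was -0.57 (edgeR adjusted p = 0.068). ADAM11 and ADAM22, the relatives of ADAM23, had log2 fold changes of 0.15 and 0.07 and did not pass.

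**Figure D3:**
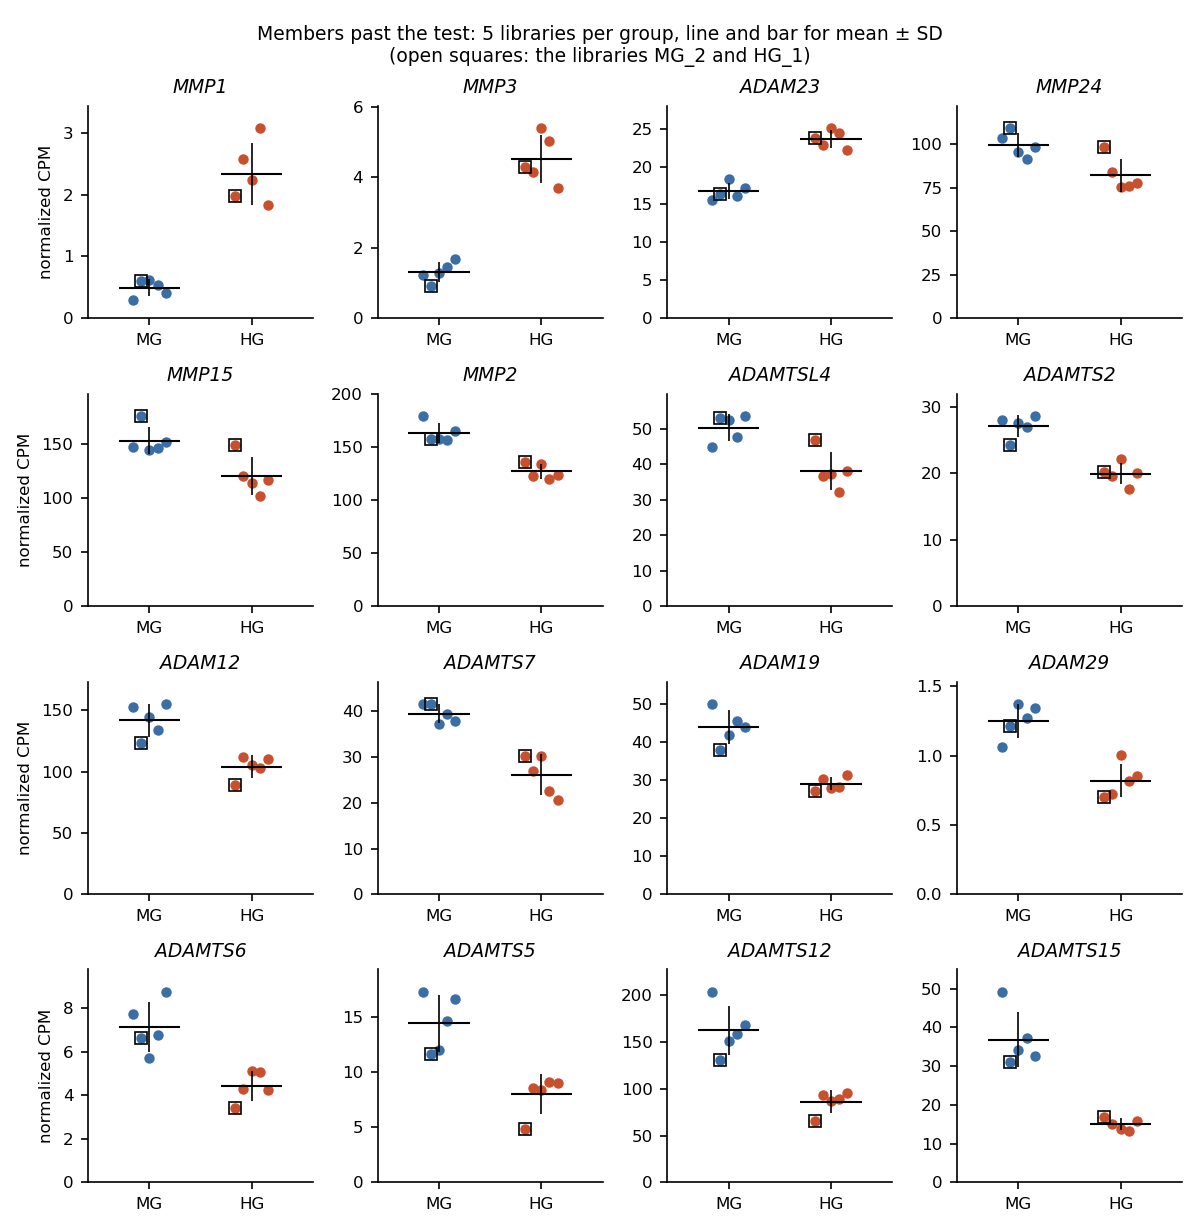
Normalized CPM of the 16 members that passed the test, 1 panel each, in 5 control (MG, blue) and 5 HG (red) libraries, ordered from the largest rise to the largest fall. Horizontal lines are means and vertical bars ± SD, every axis starts at 0, and open squares mark MG_2 and HG_1; the groups overlap in MMP24, MMP15 and ADAMTSL4 through HG_1 and are apart in the other 13.

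In the ADAMTS family 6 of 11 tested genes were lower in HG, against 7.8% of all rows, and none of the other 5 passed the test. Summed over the family, FPKM was 51.1 ± 4.86 in control (44.2 to 57.3) and 35.3 ± 2.78 in HG (30.7 to 37.8), so that the ranges did not overlap. ADAMTS12 was the largest item of this sum. The MMP sum was 296 ± 12.2 and 310.8 ± 23.8 FPKM, and the ADAM sum 266 ± 20.8 and 255 ± 20.4 FPKM, with overlapping ranges.

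Of the proteoglycan-cleaving enzymes, ADAMTS15 had the largest fall among the tested members. It was at 49.1, 31.1, 34.2, 37.2 and 32.7 CPM in the control libraries and at 16.9, 15.2, 13.7, 13.3 and 15.9 CPM in the HG libraries. The highest HG library, at 16.9 CPM, was below the lowest control library, at 31.1 CPM, and the fall was 2.46-fold (log2 fold change -1.30, SE 0.126, edgeR adjusted p = 0.000139). ADAMTS5, the aggrecanase, was at 17.2, 11.6, 12.0, 14.6 and 16.6 CPM in the control libraries and at 4.83, 8.58, 8.36, 9.15 and 9.06 CPM in the HG libraries, again without overlap (log2 fold change -0.85, SE 0.182, edgeR adjusted p = 0.00973). HG_1 was the lowest library, at 4.83 CPM, and without it and MG_2 the estimate was -0.78. ADAMTS1, which lies next to ADAMTS5 on chromosome 21, was at 6.82 ± 0.742 CPM (SD, n = 5) in control and 7.36 ± 1.06 CPM (SD, n = 5) in HG and did not pass (log2 fold change 0.11, SE 0.120, edgeR adjusted p = 0.62). ADAMTS9 did not pass either (log2 fold change -0.10, SE 0.114, edgeR adjusted p = 0.651), and ADAMTS8, the neighbour of ADAMTS15 on chromosome 11, had 27 counts over the 10 libraries.

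ADAMTS7 and ADAMTS12 cleave cartilage oligomeric matrix protein and related thrombospondin-family proteins, and both were lower in HG. COMP, the gene of the first of these substrates, had no count in any library. ADAMTS12 was at 203, 131, 151, 158 and 168 CPM in the control libraries and at 65.6, 93.9, 87.3, 89.0 and 95.8 CPM in the HG libraries. The groups did not overlap, the fall was 1.88-fold (log2 fold change -0.91, SE 0.127, edgeR adjusted p = 0.000952), and without MG_2 and HG_1 the log2 fold change was -0.90. ADAMTS7 was at 41.5, 41.5, 37.2, 39.4 and 37.9 CPM in the control libraries and at 30.3, 27.0, 30.3, 22.6 and 20.6 CPM in the HG libraries, with all HG libraries below control (log2 fold change -0.59, SE 0.107, edgeR adjusted p = 0.00392). Of its transcript, 7.36% of the 100-base windows also occur in pseudogenes.

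Among the procollagen N-proteinases, which trim the amino-terminal propeptide of fibrillar procollagens, only ADAMTS2 passed. ADAMTS2 was at 28.0, 24.3, 27.5, 27.0 and 28.6 CPM in the control libraries and at 20.2, 19.6, 22.2, 17.7 and 20.04 CPM in the HG libraries, without overlap (log2 fold change -0.44, SE 0.0708, edgeR adjusted p = 0.00206). On the deposited FPKM scale the difference was smaller, 4.34 ± 0.276 FPKM in control and 3.70 ± 0.297 FPKM in HG, and the limma test on log2(FPKM + 1) did not pass. ADAMTS3 and ADAMTS14 had log2 fold changes of -0.32 and 0.20 and did not pass. ADAMTS6, an enzyme linked to fibrillin and to cell junctions, was at 7.73, 6.64, 5.72, 6.78 and 8.71 CPM in the control libraries and at 3.43, 4.29, 5.13, 5.05 and 4.26 CPM in the HG libraries. All HG libraries lay below control (log2 fold change -0.68, SE 0.146, edgeR adjusted p = 0.00973). ADAMTS13, which cleaves von Willebrand factor and is made mainly by the liver, was at 2.90 ± 0.922 CPM (SD, n = 5) in control and 3.00 ± 0.706 CPM (SD, n = 5) in HG and did not pass (log2 fold change 0.05, SE 0.234, edgeR adjusted p = 0.928).

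In the ADAMTSL genes, whose products bind fibrillin microfibrils, only ADAMTSL4 passed. It was at 44.7, 53.1, 52.4, 47.8 and 53.4 CPM in the control libraries and at 46.7, 36.7, 37.2, 32.0 and 38.0 CPM in the HG libraries. HG_1 lay within the control range and the other 4 HG libraries lay below it (log2 fold change -0.40, SE 0.0946, edgeR adjusted p = 0.0163). ADAMTSL1, ADAMTSL3 and ADAMTSL5 had log2 fold changes of 0.29, 0.25 and -0.05 and did not pass.

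The calls held for most members when the libraries that stood apart were left out. Without MG_2 and HG_1, 17 members passed (4 higher, 13 lower) where 27.1% of all rows did; 15 were shared with the 16 above, ADAM29 was lost and ADAM10 and MMP14 were gained. After a correction for GC content and transcript length, chosen after the data were seen, 20 members passed (5 higher, 15 lower) against 29.3% of all rows, among them all 16, with ADAM10, ADAMTSL3, MMP14 and MMP28 in addition. In that fit ADAM10 was at -0.36 (edgeR adjusted p = 2.78e-05) and MMP14 at 0.26 (edgeR adjusted p = 0.000466). Across the members, GC content ranged from 36.4 to 70.4%.

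Genes that act with these proteases were read from 6 lists with 116 genes, of which 90 were tested and 38 passed (42.2%, against the 15.4% of all rows), 9 higher and 29 lower in HG. The lists were chosen with earlier results of these data known, so this share and the counts per list below are descriptions and no test. Among the inhibitors, 2 of 9 passed (22.2%, against the 15.4% of all rows), both lower. TIMP3, the matrix-bound inhibitor of MMPs, ADAM17 and aggrecanases, was at 609 ± 75.3 CPM in control and 256 ± 15.8 CPM in HG (SD, n = 5; log2 fold change -1.25, edgeR adjusted p = 1.95e-05). TIMP2, which also takes part in the activation of pro-MMP2 by MMP14, was at 1181 ± 37.0 CPM in control and 962 ± 28.9 CPM in HG (log2 fold change -0.30, edgeR adjusted p = 0.000729). TIMP1 and TIMP4 did not pass, with log2 fold changes of 0.26 and -0.22. The median of the list was -0.22.

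Of the activators and proprotein convertases, 5 of 12 passed, 1 higher and 4 lower. The urokinase gene PLAU (log2 fold change -0.75, edgeR adjusted p = 0.000234) was lower, as were the tissue factor gene F3 (-0.41) and the convertase PCSK7 (-0.28). SERPINB2, a serine protease inhibitor, was higher (log2 fold change 0.95, edgeR adjusted p = 0.00307). Among the membrane partners of ADAMs 2 of 12 passed, a share of 16.7% that is close to the 15.4% of all rows: the ADAM10-associated tetraspanins TSPAN5, higher at 0.32, and TSPAN14, lower at -0.37.

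Of the shed ligands and receptors 10 of 22 passed, 3 higher and 7 lower, with a median of -0.11. The largest values among them were NOTCH3 (log2 fold change -1.30, edgeR adjusted p = 0.0227), the interleukin-6 receptor gene IL6R (log2 fold change 1.02, edgeR adjusted p = 0.0465), the EGF receptor ligand HBEGF (log2 fold change -0.85, edgeR adjusted p = 0.000139) and ERBB4 (log2 fold change -0.53, edgeR adjusted p = 0.0173). NOTCH3 and IL6R were low, between 0.178 and 1.89 CPM, and their groups overlapped.

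Of the matrix substrates 12 of 20 tested passed, all lower, and the median was -0.68. The list held 28 genes, of which COMP, ACAN, COL2A1 and BGN had no count in any library. COL1A2 was at 0 to 4 counts and COL3A1 at 0 to 9 counts. THBS1 (log2 fold change -1.61, edgeR adjusted p = 0.000446), ELN (log2 fold change -1.60, edgeR adjusted p = 0.019), COL1A1 (log2 fold change -1.33, edgeR adjusted p = 2.86e-05) and the proteoglycan VCAN (log2 fold change -1.25, edgeR adjusted p = 0.0265), a substrate of ADAMTS1, ADAMTS5, ADAMTS9 and ADAMTS15, had the largest values. ELN and VCAN were low, at 0.334 to 2.85 CPM and 0.390 to 3.00 CPM, and the groups of VCAN overlapped. Of the transcription factors that bind MMP promoters, 7 of 15 passed, 4 higher and 3 lower, with FOSB (-1.02), ETV1 (0.70), ETV5 (0.54) and JUND (0.37) at the largest sizes.

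**Figure D4:**
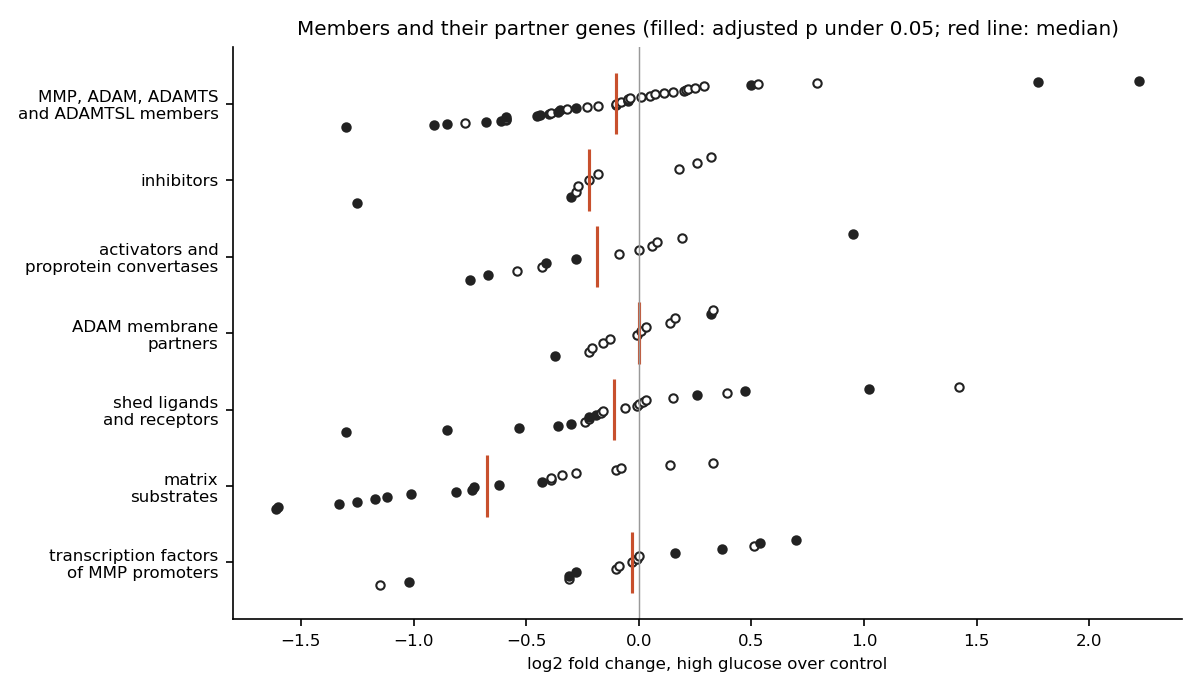
Log2 fold change of HG over control for the 41 tested members and for the 90 tested genes of the 6 lists, 1 point per gene, filled where the adjusted p was under 0.05, with the median of each list as a red line. The matrix substrates have the lowest median (-0.68), and the filled points of the members lie on both sides of 0, from -1.30 to 2.22.

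Whether reads were counted by strand is not given in the sources used here, so tested members that overlap a gene on the other strand were set beside it where it had a row. MMP24 shares 15.5% of its windows with the opposite-strand genes MMP24OS and AL121753.2, of which AL121753.2 was not analysed here and MMP24OS did not pass (log2 fold change -0.04, edgeR adjusted p = 0.866). MMP24OS was at 94.1 ± 12.1 CPM in control, near the 99.6 ± 6.86 CPM of MMP24. With the strand setting unknown, the level of MMP24 is therefore uncertain. ADAM19 overlaps exons of CYFIP2 (-0.02, edgeR adjusted p = 0.761), and ADAM17 shares 26.8% of its windows with IAH1 (0.20, edgeR adjusted p = 0.236). MMP23B, at 0.381 ± 0.136 CPM in control, overlaps exons of CDK11B, which was at 27.2 ± 1.76 CPM in control and did not pass (-0.12, edgeR adjusted p = 0.319). MMP11 overlaps exons of CHCHD10 (0.57, edgeR adjusted p = 0.424). ADAMTSL4 shares 15% with ADAMTSL4-AS1, and MMP1 and MMP3 overlap WTAPP1, for which no row was found under that symbol. Further opposite-strand genes without a row overlap ADAM10, ADAM29, ADAMTS3, ADAMTS9, ADAMTSL5, MMP16, MMP19 and MMP25. AC007336.3, which overlaps MMP2 on the same strand, had no row either.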

How the data were processed

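RNA was sequenced from 5 control and 5 HG samples of ARPE-19 cells. Per the labels, reads were trimmed with fastp 0.20.1 and aligned with HISAT2 2.2.1 to GRCh38; the counting tool, strand setting and annotation are not given in the sources used here. The authors deposited raw read counts per gene, which were tested as they are, and FPKM per gene, which were used for levels and in alternative tests. Of the 22626 rows, 2163 are assembled transcripts without a gene name (1.34 to 1.65% of counts). Control columns match the sample labels; HG columns gave only the group. HG was compared with control by edgeR 4.0.16 (TMM, filterByExpr, quasi-likelihood test, Benjamini-Hochberg over 14936 rows, group as the only term, fitted in R 4.3.3). CPM are TMM-normalized. Alternatives used DESeq2 1.42.0, limma 3.58.1 on log2(FPKM + 1) or log2(FPKM + 0.1), sva 3.50.0, other scalings and filters, each library left out in turn, and the pair MG_2 and HG_1 left out; correction for GC and length and removal of the assembled rows were added after seeing the data. Scripts were tested on simulated data. Members and lists were chosen with earlier results of these data known. Named were all members past the test, the 5 of each family with the highest mean FPKM, members without counts, the other tested members in the order of their roles, the 4 TIMPs, and up to 4 genes past the test with the largest changes in each list. A gene of these lists is not reported here. A fold change on the log2(FPKM + pseudocount) scale understates the change of low genes. No pair of libraries agreed within counting noise.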

Additional observations from a re-analysis of the deposited data

Results flagged for a closer look

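In 82 groups of 5 libraries, made of the 41 tested members in control and in HG, the distance of the highest or lowest library from its nearest neighbour exceeded 0.71 of the range in 11 groups, where about 4.1 would be expected by chance. Of these, 9 lay in MG_2 or HG_1, the libraries that stood apart and whose counts rose with GC content. ADAM15 was at 356 CPM in MG_2 against 287 to 302 CPM in the other control libraries, and at 383 CPM in HG_1 against 277 to 301 CPM in the other HG libraries. MMP15 was at 175 CPM in MG_2 (others 144 to 152 CPM) and MMP19 at 14.2 CPM (others 10.4 to 10.8 CPM). ADAM17 was low in MG_2, at 44.5 CPM against 52.8 to 56.1 CPM.

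In HG_1 the low values were ADAM10 at 115 CPM (others 160.3 to 176 CPM), ADAMTS12 at 65.6 CPM (others 87.3 to 95.8 CPM), ADAMTS9 at 50.5 CPM (others 67.7 to 74.4 CPM) and ADAMTS5 at 4.83 CPM (others 8.36 to 9.15 CPM). Outside these libraries, MG_1 held the lowest control value of ADAMTSL5, 9.82 CPM against 11.7 to 12.5 CPM, and the highest of ADAM8, 1.76 CPM against 1.03 to 1.21 CPM. Across the 41 tested members, the log2 deviation of a library from the mean of the other libraries of its group had a Pearson correlation with GC content of 0.46 in MG_2 and 0.68 in HG_1, as a description over genes, which are not independent replicates.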

How the results depend on the processing

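Of the 16 members that passed, none changed sign in the 22 alternative fits, and 12 passed in each fit in which they were tested. The exceptions were ADAM29 (lost in 10, also without MG_2 and HG_1), MMP15 and MMP24 (lost in 8 of the fits that left out a single library) and ADAMTS2 (lost in the 3 limma fits on FPKM, adjusted p up to 0.0969 by limma). Over the fits without a single library, 13 to 15 members passed, where 10.9% to 19.9% of all rows did. The number of higher members was 5 with 1 surrogate variable (16.5% of all rows higher) and 5 after correction for GC and length (14.5%). With a fold change above 1.5 asked for as well, 9 members and 20 of the 38 listed partner genes passed. By DESeq2 18 members passed, where 16.7% of all rows did, and with 1 surrogate variable 21, where 33% of all rows did. Of the members that did not pass, 5 passed in some alternative. MMP14 passed in 10 of 22 fits (by DESeq2, with library size alone, in the 3 limma fits, with 1 surrogate variable, after correction for GC and length, without MG_2 and HG_1, and without MG_2 or HG_4 alone), with log2 fold changes of 0.17 to 0.26 and adjusted p from 0.000466 to 0.149 over all fits (edgeR, limma or DESeq2). ADAM10 passed in 7 of 22 (by DESeq2, with at least 10 counts in every library, with 1 surrogate variable, after correction for GC and length, without MG_2 and HG_1, without MG_2 alone, and without the assembled rows), at -0.47 to -0.29 and adjusted p from 2.78e-05 to 0.148 over all fits (edgeR, limma or DESeq2). MMP28 passed in 4 of 20, ADAMTSL3 in 2 of 22 and MMP19 in 1 of 22. No scaling moved the median log2 fold change of all rows beyond 0.014. The groups did not overlap in 15 members (13.6% of all rows), in 16 with library size alone (13.7%), in 14 on deposited FPKM (12.6%) and in 20 without MG_2 and HG_1 (30.7%).

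Members near 0 that never passed changed sign. ADAM9 was at 0.00 with 1 surrogate variable and from -0.20 to 0.02 without single libraries. ADAM15 was at -0.01 in each of the 3 limma fits, at -0.05 with 1 surrogate variable, at -0.02 without MG_2 and HG_1, and from -0.08 to 0.07 without single libraries. ADAM17 was at 0.02 with 1 surrogate variable, at 0.01 without the pair and from -0.09 to 0.06 without single libraries. ADAMTSL5 ranged from -0.10 to 0.00 and MMP11 from -0.17 to 0.08 without single libraries. MMP16 was at 0.01 with 1 surrogate variable and from -0.10 to 0.03 without single libraries, and ADAMTS13 at -0.02 and from -0.07 to 0.25. ADAM22 was at -0.01 in each of the 3 limma fits. The cause was not tested. A count of 0 in a library leaves a level of up to 0.0654 to 0.0925 CPM. No paired analysis was made, because the labels number the control samples and letter the HG samples and so show no pairs.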
